A study of Mus musculus with 16 samples.

Results

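Aminoacyl-tRNA synthetases are the enzymes that attach each amino acid to its transfer RNA, and the 36 genes described here were chosen by name from this family. Of these, 20 encode enzymes of the cytosol and 16 encode enzymes that work in mitochondria. Identifiers were matched without their version to GENCODE vM21 symbols, and all 36 were found among the 49585 gene identifiers of the tables. Mars1 carries the older symbol Mars in that annotation. Polyadenylated RNA of mouse 2-cell embryos had been sequenced by Smart-seq2, a full-length method that does not record the strand. The labels give 16 libraries in 3 groups. A non-injected group has 4 libraries, a control group whose zygotes received LacZ double-stranded RNA has 6, and a group whose zygotes received Suv39h2 double-stranded RNA has 6. LacZ is a bacterial gene that the mouse lacks, and Suv39h2 encodes a methyltransferase of lysine 9 of histone H3. These groups are called non-injected, LacZ control and knockdown. Embryos of all 3 groups were hybrids of a DBA father with an F1 mother (C57BL/6J × CBA/H), cultured in KSOM medium. No label gives an age of the animals or an allele that differs between groups. The design text speaks of pools of 5 embryos and the extraction protocol of single embryos. The treatment protocol names Suv39h1 messenger RNA, which the label of what was injected gives to none of these groups. Because no label says that the libraries of a group came from separate matings or injection days, p-values measure only the spread between these libraries, which may be partly technical.

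A synthetase first activates its amino acid with ATP and then transfers it to the matching transfer RNA, and many synthetases also remove wrongly attached amino acids. The enzymes fall into class I and class II, which have unrelated catalytic folds. In mammals 8 of the cytosolic genes listed here encode members of the multisynthetase complex, a particle held together by the scaffold proteins Aimp1, Aimp2 and Eef1e1. Mitochondria translate their own messenger RNAs with their own set of synthetases, which are encoded in the nucleus and imported. Gars and Kars each supply both compartments from a single gene, whereas most other amino acids have a separate gene for each. Amino acid shortage raises the translation of the transcription factor Atf4, which binds amino acid response elements in the promoters of several cytosolic synthetase genes. A 2-cell embryo begins with enzymes and messenger RNA stored in the egg and starts its own major transcription at this stage.

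The promoters of 4 cytosolic members are shown because they hold the letters TGATGNAA, the core of an Atf4-type amino acid response element. The windows run from 250 bases before to 50 bases after the gene start and are those of RefSeq on GRCm38.p6, read 5′ to 3′ on the strand of the gene. The letters were searched on both strands, and capitals mark the match. For Tars (chr15:11399666-11399908, minus strand) and Gars (chr6:55037751-55038000, plus strand) the stretch outside annotated exons is printed. For Iars (chr13:49682126-49682155) and Yars (chr4:129189895-129189924), both on the plus strand, the match is printed with 11 bases on each side.
Tars: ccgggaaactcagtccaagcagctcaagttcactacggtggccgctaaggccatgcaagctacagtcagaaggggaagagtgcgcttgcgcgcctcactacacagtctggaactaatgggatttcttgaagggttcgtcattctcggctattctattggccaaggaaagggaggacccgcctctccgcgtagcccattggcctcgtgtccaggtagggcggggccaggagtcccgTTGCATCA
Gars: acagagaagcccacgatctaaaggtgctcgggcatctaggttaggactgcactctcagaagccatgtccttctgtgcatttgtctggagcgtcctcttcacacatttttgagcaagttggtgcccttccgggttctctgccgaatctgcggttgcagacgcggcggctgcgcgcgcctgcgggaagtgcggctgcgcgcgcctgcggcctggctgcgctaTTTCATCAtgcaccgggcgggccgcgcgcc
Iars: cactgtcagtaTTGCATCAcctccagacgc
Yars: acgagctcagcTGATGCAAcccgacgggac
In Tars, Gars and Iars the printed match is the reverse complement of the element, and in Yars it lies on the strand of the gene. It begins 15 bases before the gene start in Tars, 30 before in Gars, 7 after in Iars and 3 after in Yars. Windows of 26 members were searched, 12 cytosolic and 14 mitochondrial, and those of the other 10 were not used here. The element was present in 4 of 12 cytosolic members and 0 of 14 mitochondrial members searched, against 4.51% of all 27024 genes searched. By windows, it was found in 3.97% of all 32850. The narrower letters TGATGCAA were held by Iars, Tars and Yars, against 1.03% of all genes, and by none of the 14 mitochondrial members. The search for these letters was chosen after values of the members had been seen, and a match is a description of the letters only.

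Suv39h2, the target of the injected RNA, was lower in the knockdown than in the LacZ control libraries, with a log2 fold change of -1.95 ± 0.28 (SE; adjusted p = 4.72e-08, DESeq2) in the authors' deposited table. The tables hold means and fold changes over libraries, so values of single libraries were not analysed here and the depth of each library is unknown. The 2-cell markers Zscan4c, Zscan4d, Zscan4f, Zfp352, Tcstv1 and Tcstv3 had mean normalized counts from 257 to 2987. Of the 6 cumulus and granulosa cell markers, 5 had a mean below 1.5 and Cyp19a1 had 16.1, and the highest sperm marker was Prm2 at 7.78. The embryos' own markers moved with the comparisons against non-injected embryos. In the authors' deposited table of knockdown over non-injected, 4 of 6 2-cell markers and 3 of 7 oocyte markers were higher, with median log2 fold changes of 0.89 and 0.55, where 7.41% of all genes were called higher. In the authors' deposited table of LacZ control over non-injected, 2 of 6 2-cell markers were higher (Tcstv1 and Tcstv3) and 0 of 7 oocyte markers. Over all genes tested there, 0.792% were called. At an unadjusted p under 0.05 (DESeq2), 4 of the 6 and 1 of the 7 were higher, beside 7.39% of all genes in either direction. The part of these markers in the results on synthetases was not tested. In RNA pooled from whole embryos, fewer cells of a kind and less RNA per cell cannot be told apart.

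Messenger RNA of the synthetases spanned a wide range of levels. Levels are given as the authors' mean normalized count over libraries, divided here by the length in kb of the principal annotated transcript so that genes can be compared. Kars, the lysyl enzyme of both compartments, was highest at 740 per kb. With the length of all annotated exons in its place, Farsb (374) came before Kars (333). By principal transcript Kars was followed by Farsb (481), Rars (392), Nars (386) and Iars (377), all cytosolic. Lars2, which charges leucine in mitochondria, was the highest mitochondrial member at 366 per kb and ranked 6 of 36. The lowest members were Vars, the cytosolic valyl enzyme, at 1.90 per kb, and Aars2, the mitochondrial alanyl enzyme, at 2.01 per kb. The median was 129 per kb over the 20 cytosolic members and 23.4 per kb over the 16 mitochondrial members. No spread over libraries can be given for these levels, so neighbours in the order cannot be told apart.

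**Figure D1:**
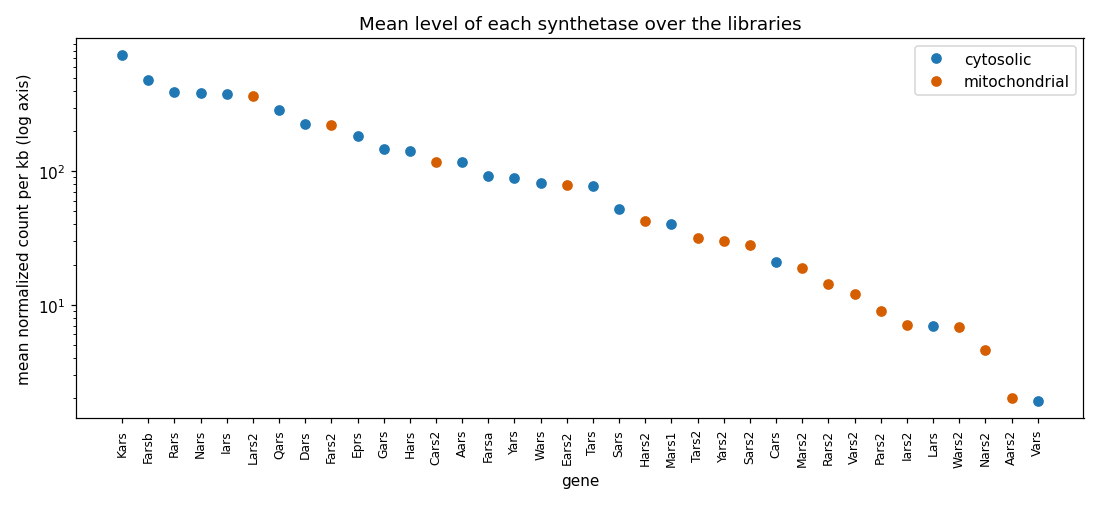
Mean normalized count per kb of principal transcript (log axis) for each of the 36 synthetase genes, ordered from highest to lowest, with cytosolic genes in blue and mitochondrial genes in orange. Points are the authors' means over libraries and carry no error; Kars stands highest at 740 per kb on this length and second to Farsb on the length of all exons, and Lars2 is the highest mitochondrial gene at 366 per kb.

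For 15 amino acids a cytosolic and a mitochondrial gene could be set side by side, with Eprs, the joint glutamyl and prolyl enzyme, used for both of its amino acids. The cytosolic gene had the higher level per kb for 12 of the 15, with a median ratio of 2.94 over all 15. The widest gap in that direction was asparagine, where Nars had 386 per kb and Nars2 4.62 per kb. The order was turned for leucine, valine and cysteine. Lars2 had 366 per kb and Lars 6.91 per kb, a ratio of 52.9 in favour of the mitochondrial gene. Vars2 had 12.1 per kb and Vars 1.90 per kb, a ratio of 6.33. Cars2 had 118 per kb and Cars 20.9 per kb, a ratio of 5.64. These ratios compare means over all groups and have no error, and the same 3 amino acids were turned when the length of all annotated exons was used. The ratios were then 25.05 for leucine, 6.95 for valine and 3.03 for cysteine.

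In knockdown over LacZ control, the comparison in which both groups were injected, no synthetase passed the test. Of the 34 members with an adjusted p in the authors' deposited table, 0 were called at an adjusted p under 0.05 (DESeq2), where 0.899% of the 15572 genes tested were called. At an unadjusted p under 0.05, 2 members were higher and 2 lower, which is 4 of 34 beside 14.7% of all genes tested. Vars and Aars2 have no adjusted p there or in knockdown over non-injected, at mean counts of 7.88 and 6.73. The authors' deposited table gave 17 of the 36 members a log2 fold change below 0, beside 48.4% of all genes tested. The median was 0.05 for the cytosolic and -0.04 for the mitochondrial members, beside 0.02 over all genes tested and -0.08 over those with a mean count of 100 or more.

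The member nearest to the threshold in that comparison was Vars2, the mitochondrial valyl enzyme. Its log2 fold change in the authors' deposited table was 1.17 ± 0.33 (SE), a 2.25-fold higher level in the knockdown libraries, with an adjusted p of 0.0511 (DESeq2). Its adjusted p was 0.0486 when only genes with a mean count of 10 or more were adjusted together and 0.0251 with centring, so the call depends on the setting. The next highest was Gars, the glycyl enzyme of both compartments, at 0.53 ± 0.22 (adjusted p = 0.204, DESeq2) in the authors' deposited table. At the other end stood Sars2, the mitochondrial seryl enzyme, with -0.83 ± 0.32 (adjusted p = 0.208, DESeq2) in the authors' deposited table. Rars, the cytosolic arginyl enzyme, had -0.70 ± 0.24 (adjusted p = 0.129, DESeq2) in the authors' deposited table. None of these 4 passed the threshold, although their unadjusted p-values in the authors' deposited table were 0.000478, 0.0154, 0.0162 and 0.00521.

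Knockdown over non-injected was the comparison with calls, and it differs from the first also by the injection itself. In the authors' deposited table, 6 of 34 members passed an adjusted p under 0.05 (17.6%; DESeq2), beside 15.2% of the 14948 genes tested. Rars, Tars, Sars2 and Yars2 were lower in the knockdown and Farsb and Vars2 were higher. That is 4 lower beside 7.76% of all genes and 2 higher beside 7.41%, and values centred on the median of genes with a mean count of 100 or more gave 3 lower and 3 higher. Among the 23 members with a mean count of 100 or more, 3 were called (Rars, Tars and Farsb), beside 22.5% of all genes at that level. The members' share called was thus near the share over all genes tested. At a mean count of 100 or more it was below that of all genes at that level, and neither difference was tested. The authors' deposited table gave 27 of the 36 members a log2 fold change below 0, with a median of -0.21, beside 0.05 over all genes tested and -0.08 over those with a mean count of 100 or more. The share below 0 was 46.8% over all genes tested and 55.3% over those with a mean count of 100 or more.

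Tars, the cytosolic threonyl enzyme (chr15:11382301-11399665, minus strand), showed the lowest cytosolic value. Its log2 fold change in the authors' deposited table was -1.11 ± 0.31 (SE; adjusted p = 0.00693, DESeq2), a level 2.16-fold lower in the knockdown than in non-injected embryos. The value of Tars in the authors' deposited table was -0.58 ± 0.30 for knockdown over LacZ control and -0.53 ± 0.31 for LacZ control over non-injected, neither of them called. Rars (chr11:35808381-35834506, minus strand) belongs to the multisynthetase complex and was 2.02-fold lower, at -1.02 ± 0.25 (adjusted p = 0.00292, DESeq2) in the authors' deposited table. For LacZ control over non-injected its value in the authors' deposited table was -0.32 ± 0.26 (adjusted p = 0.987, DESeq2). For both genes the values of the other 2 comparisons lay on the same side of 0. The comparisons share libraries, and for every member the deposited value for knockdown over non-injected is the sum of the other 2 by construction.

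Farsb (chr1:78417975-78488897, minus strand) encodes the beta subunit of the cytosolic phenylalanyl enzyme and was the only cytosolic member called higher. Its log2 fold change in the authors' deposited table was 0.47 ± 0.17 (SE; adjusted p = 0.0464, DESeq2), or 1.39-fold. Farsa encodes the alpha subunit of the same enzyme and had -0.27 ± 0.25 (adjusted p = 0.523, DESeq2) in that comparison of the authors' deposited table. The difference between the subunits was not tested. Annotated exons of Farsb overlap those of Sgpp2 on the opposite strand over 9.47% of their length, and without strand, reads from the overlap cannot be assigned to 1 gene. Fars2, the phenylalanyl enzyme of mitochondria, had 0.54 ± 0.21 (adjusted p = 0.0696, DESeq2) in the authors' deposited table and was not called. Annotated exons of Fars2 overlap those of Nrn1 and Lyrm4 on the opposite strand over 10.7% of their length, with the same limit. Both Farsb and Fars2 were called when adjustment ran over genes with a mean count of 100 or more, and with centring.

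Of the mitochondrial members, Vars2 was higher and Yars2 and Sars2 were lower. Vars2 (chr17:35655634-35667592, minus strand) was 2.31-fold higher, with a log2 fold change of 1.21 ± 0.34 (SE; adjusted p = 0.00895, DESeq2) in the authors' deposited table. For LacZ control over non-injected the value of Vars2 in the authors' deposited table was 0.04 ± 0.35, so its values over both control groups were of like size. Exons of Vars2 overlap the antisense gene Gm20483 over 8.52% of their length. Yars2, the mitochondrial tyrosyl enzyme (chr16:16302965-16309640, plus strand), was 2.25-fold lower at -1.17 ± 0.39 (adjusted p = 0.0216, DESeq2) in the authors' deposited table. Over the LacZ control it stood at -0.50 ± 0.39 (adjusted p = 0.557, DESeq2) in the authors' deposited table. Sars2 (chr7:28741992-28753871, plus strand) was 1.94-fold lower at -0.95 ± 0.33 (adjusted p = 0.0458, DESeq2) in the authors' deposited table, and for LacZ control over non-injected it had -0.13 ± 0.33. Rars, Tars, Sars2 and Yars2 share no annotated exon bases with another gene.

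The members just inside the threshold were Farsb and Sars2, and the members just outside were Wars2, Cars2 and Fars2. Wars2, the mitochondrial tryptophanyl enzyme, had -0.96 ± 0.39 (adjusted p = 0.0541, DESeq2) in the authors' deposited table. Cars2, the mitochondrial cysteinyl enzyme, had -0.61 ± 0.25 (adjusted p = 0.0658, DESeq2) in the authors' deposited table. Iars and Qars, the isoleucyl and glutaminyl enzymes of the complex, followed with adjusted p-values of 0.0837 and 0.0891 (DESeq2) in the authors' deposited table. A share of Iars reads could be ambiguous, since its transcript matches the processed pseudogene Gm4849 over 1656 bases at 96.0% identity, a pseudogene with a mean count of 3.48.

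**Figure D2:**
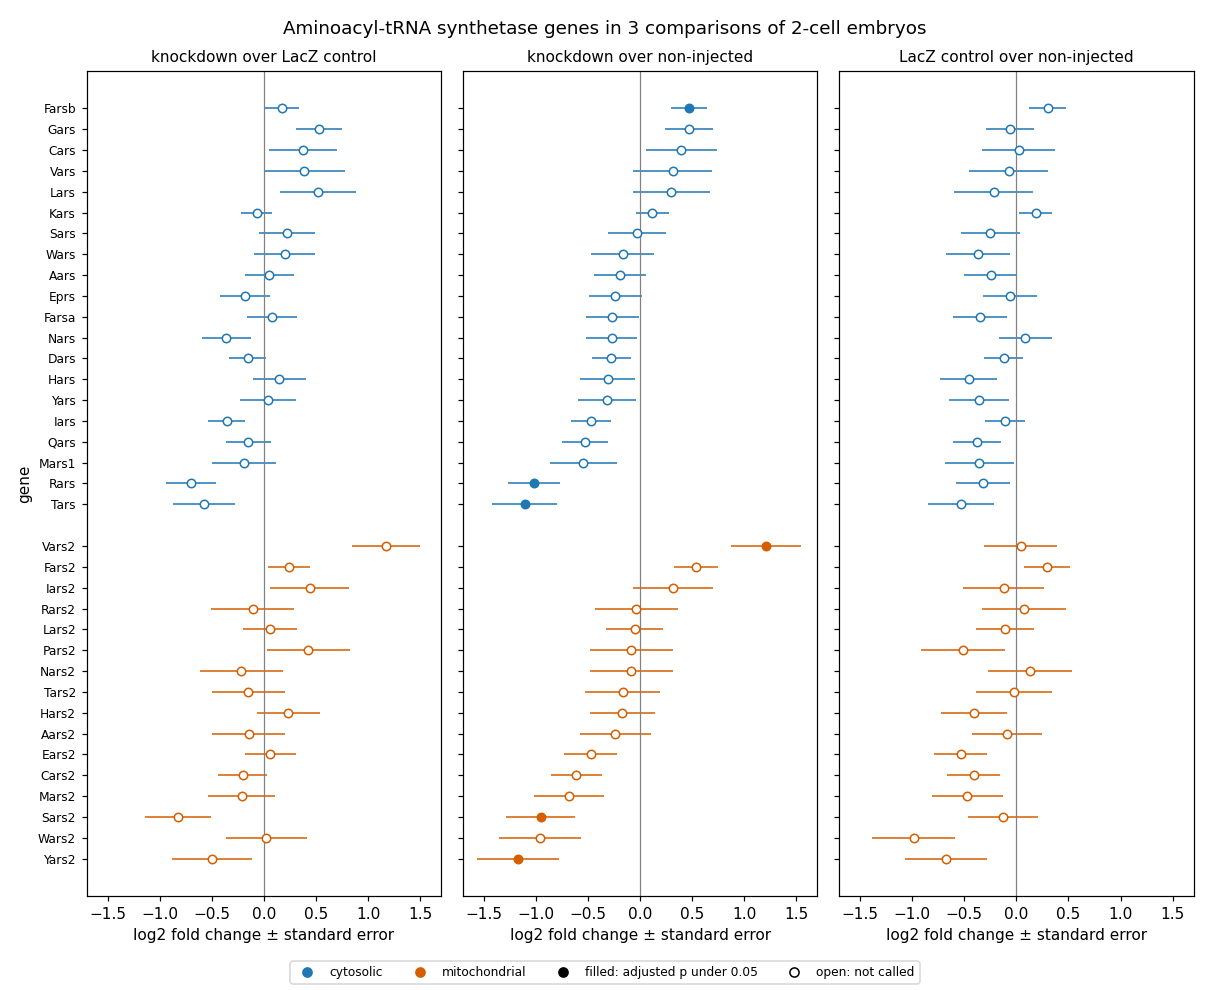
Log2 fold change ± standard error from the authors' deposited table (x axis) for the 36 synthetase genes (y axis) in each of the 3 comparisons, with cytosolic genes in blue, mitochondrial genes in orange and filled points for an adjusted p under 0.05. Filled points appear in knockdown over non-injected alone, where Rars, Tars, Sars2 and Yars2 lie below 0 and Farsb and Vars2 above it.

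LacZ control over non-injected, which asks what the injection of an unrelated double-stranded RNA does, gave no synthetase call. In the authors' deposited table, 0 of 36 members were called (DESeq2), where 0.792% of the 29288 genes tested were. At an unadjusted p under 0.05, 0 members were higher and 2 lower, beside 7.39% of all genes tested. Log2 fold changes below 0 were deposited for 28 of the 36, beside 49.6% of all genes tested. The median was -0.23 for the cytosolic and -0.12 for the mitochondrial members, beside 0.00 over all genes tested. The lowest values of the authors' deposited table belonged to Wars2 (-0.98 ± 0.40, adjusted p = 0.420, DESeq2) and Yars2 (-0.67 ± 0.40, adjusted p = 0.759, DESeq2). The highest belonged to Farsb (0.30 ± 0.18) and Fars2 (0.29 ± 0.22), neither of them called. Wars2 stood at 0.02 ± 0.39 in the authors' deposited table for knockdown over LacZ control, and its values for both injected groups over non-injected embryos were thus of like size.

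Both compartments held called enzymes in knockdown over non-injected. Of the cytosolic members with an adjusted p in the authors' deposited table, 3 of 19 passed (1 higher, 2 lower), and of the mitochondrial members 3 of 15 (1 higher, 2 lower). With a mean count of 100 or more it was 3 of 17 cytosolic and 0 of 6 mitochondrial members, and the difference was not tested. Over all genes tested 15.2% were called, and 22.5% of those with a mean count of 100 or more. The contrast depends on the adjustment, since the mitochondrial genes Cars2 and Fars2 were also called when only genes at that level were adjusted together. The median log2 fold change from the authors' deposited table was -0.25 over the 20 cytosolic members, of which 14 were below 0. It was -0.17 over the 16 mitochondrial members, of which 13 were below 0. The share below 0 over all genes tested was 46.8%. The standard errors in the authors' deposited table had a median of 0.25 over the cytosolic and 0.34 over the mitochondrial members for single genes, and the gap between the list medians was not tested. The median mean count was 331 for the cytosolic and 52.8 for the mitochondrial members, so the mitochondrial values rest on fewer reads.

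Read amino acid by amino acid, none of the 15 had both of its enzymes called. In knockdown over non-injected, 1 of the 2 enzymes was called for 5 amino acids, the cytosolic one for arginine and threonine and the mitochondrial one for serine, tyrosine and valine. For arginine, the authors' deposited table gave Rars -1.02 and the mitochondrial gene Rars2 -0.03 ± 0.40. Threonine had the same shape, with Tars at -1.11 and Tars2 at -0.17 ± 0.36 in the authors' deposited table. For tyrosine the mitochondrial gene was the lower one, with Yars2 at -1.17 and Yars at -0.32 ± 0.28 in the authors' deposited table. Serine likewise had Sars2 at -0.95 and Sars at -0.03 ± 0.28 in the authors' deposited table. Valine was the only one of the 15 amino acids with both values above 0, with Vars2 at 1.21 and Vars at 0.31 ± 0.38 in the authors' deposited table. The fold changes of the 2 genes had the same sign for 12 of 15 amino acids and opposite signs for cysteine, isoleucine and leucine. Cars stood at 0.39 ± 0.34 and Cars2 at -0.61 ± 0.25 in the authors' deposited table, the widest gap of the 15, and neither was called. In knockdown over LacZ control the signs matched for 8 of 15 amino acids, and in LacZ control over non-injected for 12 of 15. No difference within a pair was tested.

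**Figure D3:**
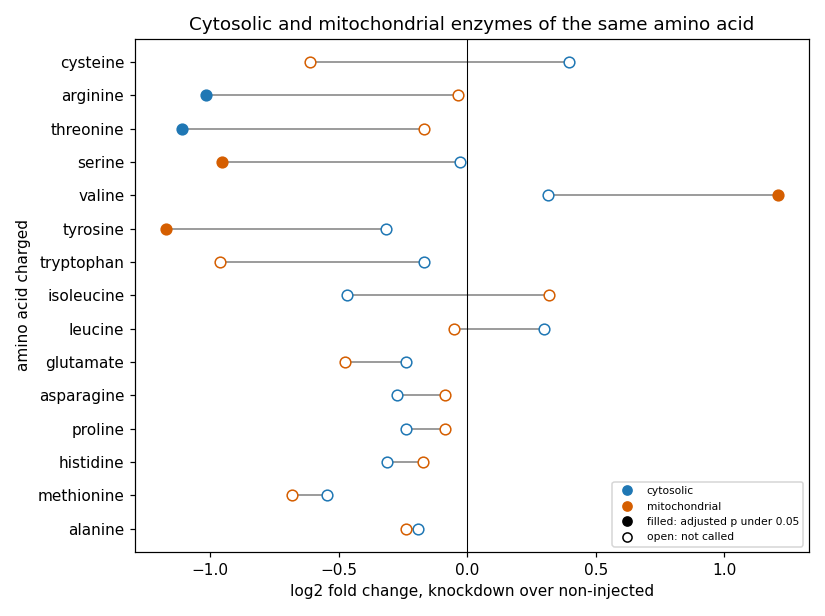
Log2 fold change in knockdown over non-injected from the authors' deposited table (x axis) for the cytosolic gene (blue) and the mitochondrial gene (orange) of each of 15 amino acids (y axis), ordered by the gap between them, with filled points for an adjusted p under 0.05. A grey line joins each pair; 5 amino acids have 1 filled point and none has 2, and the widest gap is that of cysteine.

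Hars and Hars2 make up a special pair, because the cytosolic and mitochondrial histidyl enzymes are divergent neighbours on chromosome 18 whose annotated 5′ ends overlap by 198 bases. Their levels were 142 and 42.8 per kb. In knockdown over non-injected the authors' deposited table gave -0.31 ± 0.27 for Hars and -0.17 ± 0.31 for Hars2, and in LacZ control over non-injected -0.46 ± 0.27 and -0.41 ± 0.32. None of these values was called, and reads from the shared bases cannot be assigned without strand. Mars1, the cytosolic methionyl enzyme, overlaps Ddit3, a stress-induced transcription factor gene, by 68 bases on the opposite strand. In all, 13 members shared exon bases with another gene, 6 cytosolic and 7 mitochondrial, and the share was highest for Iars2 at 24.2%.

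The 8 enzymes of the multisynthetase complex (Dars, Eprs, Iars, Kars, Lars, Mars1, Qars and Rars) had 1 call in knockdown over non-injected, Rars (12.5%, beside 15.2% of all genes tested). In the authors' deposited table their median was -0.17 when the knockdown was set against the LacZ control, -0.37 when it was set against non-injected embryos, and -0.17 when the LacZ control was. The 12 cytosolic genes outside the complex had medians of 0.16, -0.18 and -0.25 in the authors' deposited table in the same order, with Tars and Farsb called in the second. In knockdown over LacZ control, 7 of the 8 complex enzymes had a value below 0 and 2 of the 12 others had. The share below 0 was 48.4% over all genes tested and 58.3% over those with a mean count of 100 or more. None of the values of these cytosolic members was called there, and the difference between the 2 groups was not tested. Of the scaffold genes, Aimp2 was lower in knockdown over non-injected, with -0.76 ± 0.19 (SE; adjusted p = 0.00275, DESeq2) in the authors' deposited table, and had -0.57 ± 0.18 over the LacZ control (adjusted p = 0.0857, DESeq2). Eef1e1 and Aimp1 had -0.39 ± 0.25 and 0.10 ± 0.32 in the authors' deposited table for knockdown over non-injected, neither called.

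The cytosolic members were also read by catalytic class. In knockdown over non-injected the authors' deposited table had 1 of 8 class I members called (Rars, 12.5%) and 2 of 10 class II members (Tars and Farsb, 20%). Beside them stand 15.2% of all genes tested, and 22.5% of those with a mean count of 100 or more, a level that all 10 class II members reach. The medians were -0.32 over 9 class I and -0.23 over 10 class II genes, a difference that was not tested. Eprs, which joins a class I and a class II domain in 1 protein, was counted in neither and had -0.24 ± 0.25 in the authors' deposited table. Gars and Kars, which serve both compartments, had 0.47 ± 0.23 and 0.12 ± 0.16 in the authors' deposited table and were not called. The other aminoacylation and editing genes, among them Gatb and Sepsecs, had 0 of 11 called in knockdown over non-injected (DESeq2). The share called over all genes tested was 15.2%. Their median was 0.04 in the authors' deposited table, and 2 of the 11 had an unadjusted p under 0.05. No share of all genes at that unadjusted p is given here for this comparison. Only 2 of the 11 reach a mean count of 100 or more, and their median mean count was 47.2. The absence of calls therefore does not show that the genes of that list were unchanged. Gatb, a subunit of the enzyme that makes glutaminyl-tRNA in mitochondria, had the smallest p of that list, with 0.66 ± 0.29 (adjusted p = 0.112, DESeq2) in the authors' deposited table.

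Calls among other genes of transfer RNA biology were mostly lower in knockdown over non-injected. RNA polymerase III transcribes the transfer RNA genes, and 7 of 20 genes of its machinery were lower and 0 higher in the authors' deposited table, with a median of -0.67. Beside them stand 7.76% of all genes lower, and 22.5% of all genes with a mean count of 100 or more called, a level that 19 of the 20 reach. The smallest p-values belonged to Polr3b (-0.95 ± 0.22, adjusted p = 0.00139, DESeq2), Gtf3c4 (-0.88 ± 0.22, adjusted p = 0.00244, DESeq2) and Polr3a (-0.89 ± 0.22, adjusted p = 0.00275, DESeq2) in the authors' deposited table. Gtf3c4, a subunit of the factor that recruits the polymerase, was also lower in knockdown over LacZ control, at -0.73 ± 0.21 (adjusted p = 0.0458, DESeq2) in the authors' deposited table. That was 1 of 20 genes of the list, beside 0.899% of all genes tested. In LacZ control over non-injected 0 of 20 were called (DESeq2), with 6 lower at an unadjusted p under 0.05, beside 7.39% of all genes in either direction. That share is over 29288 genes, of which 7722 have a mean count of 100 or more, and a share at that level was not computed. Genes of transfer RNA processing and export had 2 of 18 lower and 0 higher in the authors' deposited table of knockdown over non-injected (11.1% called, beside 15.2% of all genes), with a median of -0.42. They were Pop5 (-0.89), a subunit of ribonuclease P, and the transfer RNA exporter Xpot (-0.77) in the authors' deposited table.

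Genes of transfer RNA modification gave 1 call in each direction among 24 in knockdown over non-injected (8.33% called, beside 15.2% of all genes), with a median of -0.24 in the authors' deposited table. Nsun2, a cytosine methyltransferase of transfer RNA, was lower at -0.97 ± 0.21 (adjusted p = 0.000291, DESeq2) in the authors' deposited table. Cdkal1, which modifies an adenosine beside the anticodon of lysine transfer RNA, was higher at 1.21 ± 0.27 (adjusted p = 0.000447, DESeq2) in the authors' deposited table. The list of mitochondrial translation factors also holds genes of mitochondrial transfer RNA processing and modification, and 1 of 14 was called, beside 15.2% of all genes. The call was Trmt10c, a subunit of mitochondrial ribonuclease P and not a translation factor, at -0.62 ± 0.23 (adjusted p = 0.0469, DESeq2) in the authors' deposited table. The median of that list was 0.23 in the authors' deposited table, above 0 where that of the mitochondrial synthetases was below 0.

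The amino acid response list holds Atf4, genes of its pathway (kinases, phosphatase subunits and Eif2s1), and genes it is known to activate. In knockdown over non-injected 7 of 29 were lower and 1 higher in the authors' deposited table (27.6% called), beside 15.2% of all genes called, and the median was 0.09. All 8 were among the 22 genes of the list with a mean count of 100 or more, a level at which 22.5% of all genes were called. The lower calls were Psat1, Slc7a5 and the pathway genes Eif2ak1, Eif2ak3, Eif2s1, Ppp1r15a and Ppp1r15b. The higher call was Mthfd2. The smallest p-values belonged to Psat1, an enzyme of serine synthesis (-1.14 ± 0.22, adjusted p = 6.67e-05, DESeq2), Slc7a5, a transporter of large neutral amino acids (-1.25 ± 0.32, adjusted p = 0.00424, DESeq2), and the kinase gene Eif2ak1 (-0.56 ± 0.15, adjusted p = 0.00497, DESeq2) in the authors' deposited table. Psat1 and Slc7a5 were also lower in knockdown over LacZ control, at -0.74 ± 0.21 and -1.22 ± 0.31 (adjusted p = 0.0456 and 0.0268, DESeq2) in the authors' deposited table. That was 2 of 30 genes of the list, beside 0.899% of all genes tested. Atf4 messenger RNA had -0.30 ± 0.19 (adjusted p = 0.278, DESeq2) in the authors' deposited table and was not called. In LacZ control over non-injected 1 of 33 genes of the list was called, beside 0.792% of all genes tested. It was Slc38a2, a neutral amino acid transporter, at 0.80 ± 0.39 (adjusted p = 0.0407, DESeq2) in the authors' deposited table, with a mean count of 9.23. For knockdown over non-injected the value of Slc38a2 was the highest of the list in the authors' deposited table, 1.31 ± 0.39, with an unadjusted p of 2.97e-05 and no adjusted p (DESeq2).

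Of the 4 synthetase genes with the printed element, Tars alone was called in knockdown over non-injected, beside 15.2% of all genes tested. Gars had 0.47, Iars -0.47 and Yars -0.32 in the authors' deposited table, so their values lay on both sides of 0. In the amino acid response list the same letters were found in the windows of 7 of 30 genes, namely Asns, Chac1, Nupr1, Pycr1, Slc7a11, Trib3 and Vldlr. None of those 7 was called in any comparison. The share called over all genes was 15.2% for knockdown over non-injected, 0.899% for knockdown over LacZ control and 0.792% for LacZ control over non-injected. Asns, Chac1, Pycr1 and Vldlr had mean counts from 21.8 to 44.8, so the absence of calls does not show that these genes were unchanged. Values of the 7 for knockdown over non-injected ran from -0.29 (Trib3) to 0.68 (Nupr1) in the authors' deposited table. No value measured here reads the activity or binding of Atf4.

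**Figure D4:**
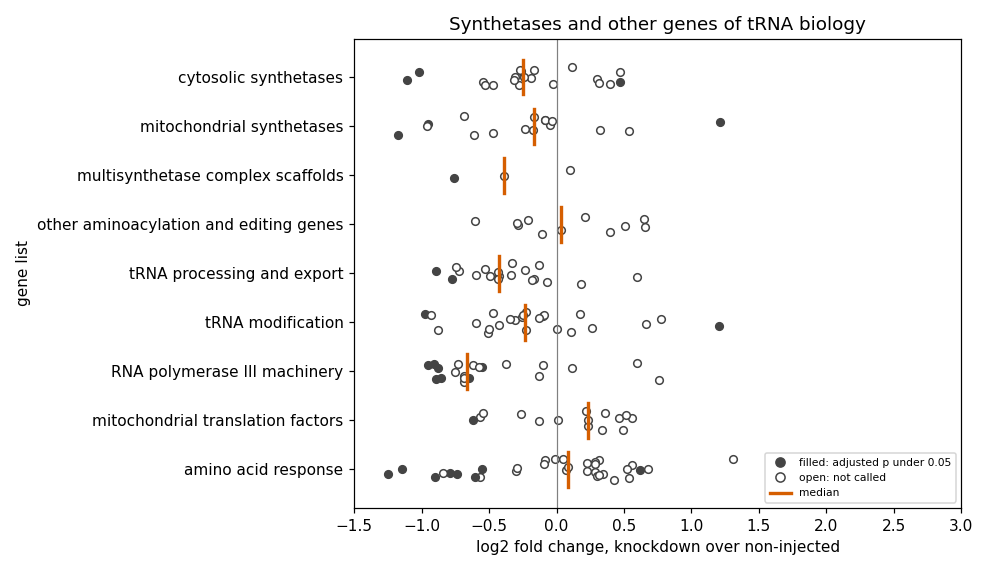
Log2 fold change in knockdown over non-injected from the authors' deposited table (x axis) for each gene of 9 lists of transfer RNA and amino acid biology (y axis), with filled points for an adjusted p under 0.05 and a bar at each list's median. The synthetase medians are -0.25 (cytosolic) and -0.17 (mitochondrial), and the list furthest below 0 is the RNA polymerase III machinery at -0.67.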

How the data were processed

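Polyadenylated RNA of 16 libraries of 2-cell embryos was measured, grouped by the label of what was injected. Per the submitters' processing notes, the tools were STAR 2.5.2b, SAMtools, HTSeq 0.9.1 and DESeq2 1.18.1 on GRCm38.p5. Only the names of the tables record RUVSeq factors and shrunken fold changes. The number of factors and the annotation release were not given in the sources used. The deposited tables hold, per the file headers, the mean normalized count over libraries, a signal scaled by size factors. Deposited beside it are a log2 fold change and its standard error, a Wald statistic (a score), and a p-value before and after adjustment. Shrinkage moves fold changes of genes with few reads towards 0, and for Vars, Wars2 and Sars the deposited statistic and fold change differ in sign in 1 comparison each. There were 0 columns of single-library values, so depth is unknown and no refit was made. The repeat tables were not used here, and 1 gene of another list and 1 promoter window are not reported here.

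An adjusted p under 0.05 over all genes tested was counted as a call. Benjamini-Hochberg adjustment over the genes with an adjusted p gave the deposited values back to within 1.84e-05, and this step was tested on simulated data. Mean counts of the 3 tables differed by at most 4.87e-06. Symbols, positions and exon overlaps come from GENCODE vM21, similar transcripts (at least 300 bases at 95% identity) from blastn 2.17.0, and promoters from RefSeq (GRCm38.p6). Levels per kb use the longest principal transcript. Alternatives were other count minimums, thresholds and adjustments, centring and leaving out overlapping genes. Members and the 16 other lists were chosen with earlier results of these data known. Full values are given for members called in any comparison and for the 2 highest and 2 lowest fold changes of each. In other lists, up to 3 called genes by smallest p are named, or 1 where none was called. Farsa, Cars, Cars2, Iars, Qars, Eprs, Kars, Hars, Hars2, Atf4, Aimp1 and Eef1e1 were named outside this rule, after their values were seen. So were the genes with the promoter element, the partners of called genes, Eif2ak3, Eif2s1, Ppp1r15a, Ppp1r15b and Mthfd2.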

Additional observations from a re-analysis of the deposited data

How the results depend on the processing

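No leave-one-out fit was run and no paired analysis was possible because the deposited tables hold no values of single libraries. The number of synthetases called in knockdown over LacZ control went from 0 to 1, Vars2, with a mean count of 10 or more (1 called), with centring (1), with an adjusted p under 0.1 (1) and, in an alternative added after the data were seen, with the Wald test of the fold change over its error (1). In knockdown over non-injected the count was 11 at an adjusted p under 0.1 and 3 at an adjusted p under 0.01, against 6. Centring on the median of genes with a mean count of 100 or more, a shift of -0.08, gave 3 higher and 3 lower calls there in place of 2 and 4. The other alternative counts of calls stayed within 1.5 times the main count. In knockdown over LacZ control the medians crossed 0 in 3 of 5 alternatives, for both the cytosolic (-0.11 to 0.12) and the mitochondrial members (-0.15 to 0.06). They were below 0 in all 5 in the other comparisons, where they ran from -0.27 to -0.17 (cytosolic) and -0.32 to -0.09 (mitochondrial) for knockdown over non-injected. For LacZ control over non-injected they ran from -0.25 to -0.17 and from -0.41 to -0.12. Adjusted over every gene with a p-value, Farsb (0.0936) and Sars2 (0.0923) lost their calls, and Sars2 (0.0510) lost it with centring. Yars2 (0.0216), Sars2 and Farsb were not called at an adjusted p under 0.01. Rars and Tars were called in every alternative run for knockdown over non-injected. In that comparison Vars2 was called wherever it was tested, but it is left out at a mean count of 100 or more and among members without overlapping exons. Fars2 gained a call with a mean count of 100 or more, with centring and at an adjusted p under 0.1, where Farsb was called too. Cars2 gained a call with a mean count of 100 or more and at an adjusted p under 0.1. Why a call was gained or lost was not tested. Low counts limit Vars and Aars2.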
